A study of Caenorhabditis elegans with 2 samples.

Results

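The insulin-like peptide genes of Caenorhabditis elegans were examined in whole worms raised with or without carbon nanotubes. Members were all genes with a probe set of their own whose symbol in the array's probe annotation begins with ins-, together with daf-28. This rule found 24 genes with 25 probe sets, among 17138 genes with 20766 single-gene probe sets in all, and ins-24 was the 1 gene with 2 probe sets. RefSeq's gene table for the WBcel235 assembly lists 40 genes of these names, and the other 16, among them ins-8, ins-9, ins-19 and ins-20, had no single-gene probe set under the annotation used and were not analysed here. The exposed group was wild-type N2 worms given amide single-walled carbon nanotubes (a-SWCNT) at 500 μg/mL, and the control group was N2 worms given none. Both were started as synchronised L1 larvae, kept for 48 hr at 22 °C and labelled as L4 larvae, the last larval stage, and RNA of whole animals was hybridised to 1 Affymetrix array per group. With 1 array in each group there are no replicates, so values carry no error between cultures and no p-value, and precision is limited by the number of arrays.

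Insulin-like peptides are small secreted hormones related to vertebrate insulin, made mainly in neurons and the intestine of the worm. They act on DAF-2, the receptor tyrosine kinase of the worm that corresponds to the insulin and IGF-1 receptors. Agonists switch on the kinase cascade AGE-1, PDK-1, AKT-1 and AKT-2, which keeps the FOXO transcription factor DAF-16 out of the nucleus and favours growth and reproduction over dauer arrest, and antagonists oppose it. In whole-animal RNA, fewer cells of a type and less RNA per cell cannot be told apart.

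A signal is the intensity deposited for a probe set, in arbitrary units. The a-SWCNT array was dimmer as a whole, with a trimmed mean of 83.2 against 208 on the control array, so its signals were multiplied by 2.50 to bring the trimmed means together, and all a-SWCNT signals below are after this scaling unless said otherwise. A member counts as measured by an array if its signal lay above the median of all 22548 worm probe sets of that array, which was 55.6 on the a-SWCNT array and 58.4 on the control array. Probe sets bind their targets with different strength, so a signal places a probe set against this median and does not rank the abundance of genes. The error within arrays can be gauged from genes with several probe sets: the log2 ratios of 2 probe sets of the same gene differed by a median of 0.43 and a 95th percentile of 1.38 over 1377 genes.

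About as many members were above the median as probe sets in general. On the a-SWCNT array 14 of the 25 member probe sets (56.0%) were above it, beside 51.9% of all single-gene probe sets, and on the control array 12 of 25 (48.0%), beside 51.8%. The 12 above the median on both arrays (background 48.5%) belonged to ins-1, ins-4, ins-5, ins-7, ins-11, ins-17, ins-18, ins-26, ins-30, ins-33, ins-35 and ins-37. A probe set of ins-24 and that of ins-6 were above it on the a-SWCNT array alone (background 3.39%), 0 were above it on the control array alone (background 3.36%), and 11 were below it on both (background 44.8%). Nearest to the limit, on the a-SWCNT array, were ins-6 at 57.1 above it and ins-21 at 39.1 below it. On the control array the nearest were ins-26 at 59.0 above it and ins-24 at 55.4 below it.

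**Figure D1:**
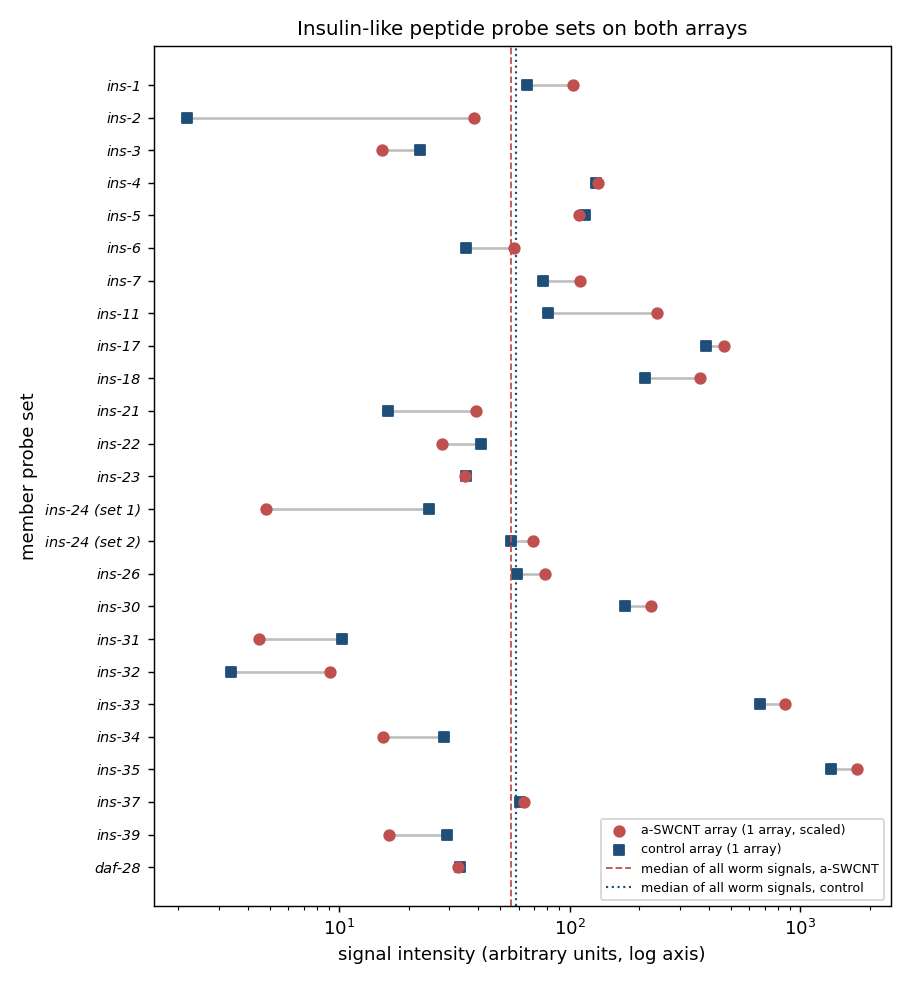
Signal of each of the 25 member probe sets on the a-SWCNT array (circles, scaled) and on the control array (squares), on a log axis in arbitrary units. Vertical lines mark the median of all worm signals on each array, 55.6 and 58.4. The 12 probe sets right of both lines were measured on both arrays, and daf-28 lies left of them.

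Among the 12 members measured on both arrays, 11 had a higher scaled signal on the a-SWCNT array and ins-5 a lower one, while 47.7% of the 8320 genes measured on both arrays were higher. The log2 ratio, a-SWCNT over control, had a median of 0.38 (1.30-fold) among the members and of -0.03 among all genes. It was 0.38 also without ins-11. The members' ratios ran from -0.09 to 1.57, and 1 member, ins-11, was at least 2-fold higher (background 1.43%) and 0 were at least 2-fold lower (background 2.84%). At 1.5-fold there were 3 higher, ins-11, ins-18 and ins-1 (background 8.11%). Of the 12 ratios, 8 were within the median difference between probe sets of a single gene (0.43), 3 (ins-18, ins-1 and ins-7) were beyond it and within the 95th percentile (1.38), and ins-11 was beyond both. This yardstick is rough, since it sets a difference between 2 ratios against the size of 1 ratio. The same counts were not taken over all genes, so they do not show whether the members are unusual.

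The 3 members on the list of antagonists of DAF-2 signalling used here, ins-1, ins-17 and ins-18, were all measured on both arrays. The list may not hold every antagonist. ins-18, which with ins-1 is among the worm peptides closest to human insulin, had a signal of 366 in a-SWCNT worms and 211 in control worms, 1.73-fold higher (log2 ratio 0.79). ins-1, a neuronal peptide that also acts in salt learning, had 103 in a-SWCNT worms and 65.2 in control worms, 1.58-fold higher (0.66). ins-17, known to promote dauer arrest, had 466 in a-SWCNT worms and 390 in control worms, 1.19-fold higher (0.26). All 3 were thus higher on the a-SWCNT array, as were 11 of the 12 measured members and 47.7% of all genes. For ins-17 the difference was less than probe sets of a gene commonly differ, and its log2 ratio was -0.02 with equal hybridisation controls.

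Of the 6 members on the list of agonists (ins-3, ins-4, ins-6, ins-7, ins-32 and daf-28), 2 were measured on both arrays. ins-7, which is held down by DAF-16 and acts in a feedback loop between tissues, had 111 in a-SWCNT worms and 76.5 in control worms, 1.45-fold higher (log2 ratio 0.54). ins-4, which acts with ins-6 and daf-28 against dauer arrest, had 132 in a-SWCNT worms and 130 in control worms, a log2 ratio of 0.02. The ins-4 signals were thus nearly equal on the arrays.

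The other 4 agonists were dim. ins-6, a peptide of ASI and ASJ sensory neurons that promotes exit from dauer, had 57.1 in a-SWCNT worms and 35.5 in control worms. Its a-SWCNT signal was just above that array's median and below the control median, so no fold is given. daf-28, made in the same neurons and required to avoid dauer arrest, had 32.8 in a-SWCNT worms and 33.4 in control worms, both below the medians. ins-3 had 15.4 in a-SWCNT worms and 22.4 in control worms, and ins-32 had 9.11 in a-SWCNT worms and 3.39 in control worms, also below. For these genes the arrays gave no usable ratio, and the signals of daf-28 were nearly the same.

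The member farthest from equal signals was ins-11, a peptide of the intestine and neurons known from the response of worms to bacterial pathogens. Its signal was 239 in a-SWCNT worms and 80.5 in control worms, 2.97-fold higher (log2 ratio 1.57), and 0.216% of the genes measured on both arrays had a ratio as high or higher. Among the 500 probe sets with the nearest mean signal, the log2 ratio ran from -1.10 at the 5th to 0.61 at the 95th percentile, and 0.600% were as high as ins-11. It was the only one of the 12 members with the higher signal on the a-SWCNT array in the values as deposited too, with 95.5 in a-SWCNT worms and 80.5 in control worms, which held for 0.481% of all genes. The probe set of ins-11 is of a type, marked by a letter in its identifier, that may bind several transcripts, and no other probe set measured this gene. The adjacent gene ins-12 was not analysed here.

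A similar comparison with 500 probe sets of like signal was made for every measured member. Only the ratios of ins-11 and ins-18 lay above the 95th percentile of their neighbours in signal, with 2.20% of them as high as ins-18, and 10 members lay between the 5th and 95th percentiles. For ins-1 5.40% were as high, for ins-26 5.80% and for ins-7 9.0%. All 12 members, ins-5 included, lay above the median of their neighbours in signal, which ran from -0.13 to 0.16. The margin was small for ins-5 (-0.09 against -0.11), with 48.2% of its neighbours as high. For ins-4 36.8% were as high and for ins-37 33.8%. Over the 9060 single-gene probe sets in the members' range of mean signal, 45.0% had a ratio above 0. For ins-26 and ins-37, which lie close to the limit, the band is narrow because both signals had to be above it.

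**Figure D2:**
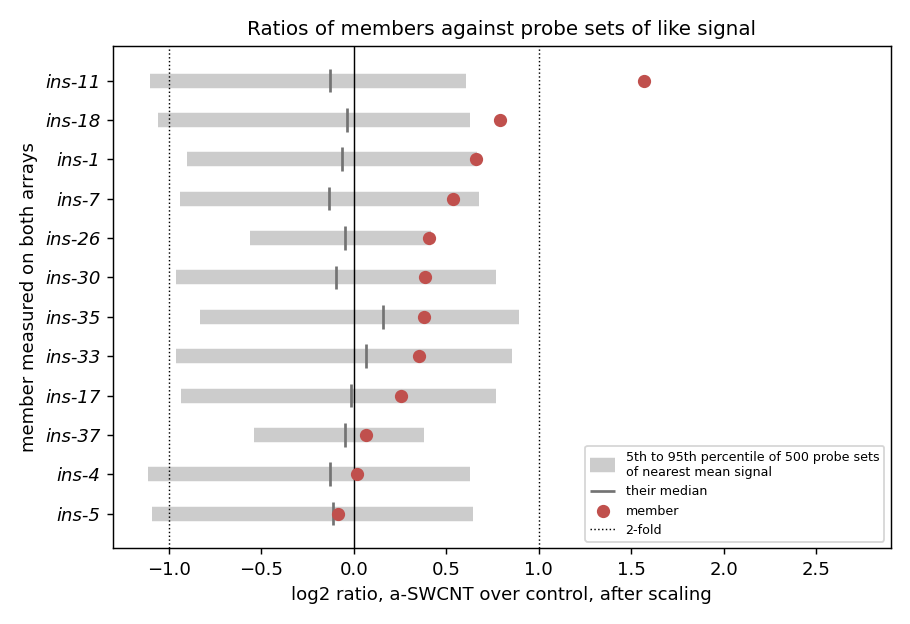
Log2 ratio of a-SWCNT over control for the 12 members measured on both arrays (circles), from the highest at the top to the lowest. Grey bars span the 5th to 95th percentile of the 500 single-gene probe sets of nearest mean signal and ticks mark their medians, and ins-11 (1.57) and ins-18 (0.79) lie right of their bars.

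A further 4 members differed by about 1.3-fold. ins-35, which is expressed in the intestine, had 1761 in a-SWCNT worms and 1354 in control worms, 1.30-fold higher (log2 ratio 0.38). ins-33 had 854 in a-SWCNT worms and 670.1 in control worms (0.35). These are within the difference that is usual between probe sets of a gene. ins-30 had 226 in a-SWCNT worms and 173 in control worms (0.39). ins-26 had 78.3 in a-SWCNT worms and 59.0 in control worms (0.41), close to the limit on the control array. ins-26, ins-30 and ins-24 are neighbours in the genome, with no protein-coding gene between them in the reference table.

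The remaining measured members were close to equal on the arrays. ins-37 had 63.6 in a-SWCNT worms and 60.8 in control worms (log2 ratio 0.07). ins-5 had 110 in a-SWCNT worms and 117 in control worms, 1.06-fold lower (-0.09). The probe set of ins-24 that may bind several transcripts had 69.3 in a-SWCNT worms and 55.4 in control worms, which is at least 1.19-fold higher against the control median. It passed the limit only through the array on which it was higher, and the other probe set of ins-24 was below both medians, at 4.79 in a-SWCNT worms and 24.4 in control worms. The probe sets of ins-24 thus gave no common direction.

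The genes ins-2 to ins-6 follow each other on chromosome II with no other protein-coding gene between them, and they did not share a pattern. ins-4 and ins-5 were measured on both arrays at nearly equal signals, ins-6 on the a-SWCNT array alone, and ins-2 and ins-3 on neither. ins-2 had 38.5 in a-SWCNT worms and 2.19 in control worms, a wide gap that lies wholly below the medians and is given no fold. The neighbours ins-21, ins-22 and ins-23 on chromosome III were below the medians too. ins-21 had 39.1 in a-SWCNT worms and 16.2 in control worms, and ins-22 had 27.9 in a-SWCNT worms and 41.2 in control worms. ins-23 had 35.0 in a-SWCNT worms and 35.4 in control worms.

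In all, 10 member genes had every probe set below the median on both arrays: ins-2, ins-3, ins-21, ins-22, ins-23, ins-31, ins-32, ins-34, ins-39 and daf-28. With the second probe set of ins-24, their signals ran from 4.47 to 39.1 on the a-SWCNT array and from 2.19 to 41.2 on the control array. Among those not yet described, ins-31 had 4.47 in a-SWCNT worms and 10.3 in control worms. ins-34 had 15.5 in a-SWCNT worms and 28.4 in control worms, and ins-39 had 16.5 in a-SWCNT worms and 29.4 in control worms. Below the medians the signals give no direction for any of these genes.

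How many members were higher depended on the scaling. Most scalings apply the same factor to every probe set, while quantile normalisation and loess centring adjust probe sets by their signal. With equal medians 11 of 12 were above 0, beside 54.1% of all genes. All 12 were above 0 with equal 75th percentiles (all genes 59.2%), quantile normalisation (54.8%) and loess centring (52.8%). With the arrays brought to equal hybridisation controls, which are bacterial and phage transcripts added to the sample, 8 of 12 members were above 0 and 4 below, beside 24.4% of all genes above 0. In that scaling ins-37 stood at -0.21, ins-17 at -0.02, ins-4 at -0.25 and ins-5 at -0.36. ins-1, ins-7, ins-11, ins-18, ins-26, ins-30, ins-33 and ins-35 were above 0 in all 6 scalings other than the values as deposited. These are the 8 members above 0 with equal hybridisation controls, the scaling that gave each its lowest ratio. The 6 scalings are therefore not separate checks, and the share of all genes above 0 in all 6 was not counted. The difference between the members' median and the median of all genes was 0.41 in every scaling by a single factor, since such a factor moves both alike, and it was 0.38 after quantile normalisation and 0.37 after loess centring.

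**Figure D3:**
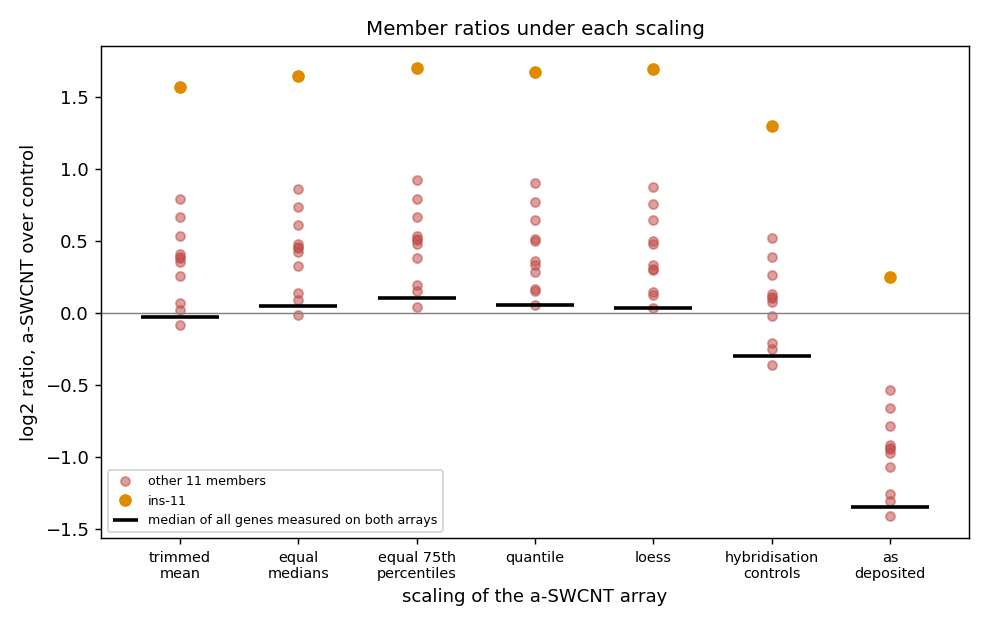
Log2 ratio of a-SWCNT over control for the 12 members measured on both arrays under 6 scalings and in the values as deposited, with black bars at the median of all genes measured on both arrays. ins-11 (orange) is above 0 in every column, from 1.70 with equal 75th percentiles down to 0.25 as deposited, and 11 or 12 of the members lie above the black bar in each column.

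The genes of the receptor pathway were mostly on the lower side, with sgk-1 on the higher side. All 4 probe sets of daf-2, the receptor, were below the medians, at 1.01 to 14.2 in a-SWCNT worms and 0.553 to 3.32 in control worms, so its level was not measured. Of 10 genes of the receptor pathway measured on both arrays, 2 were above 0 and 8 below, beside 47.7% of all genes above 0. Their median log2 ratio was -0.20, and 0 were 2-fold different (background 1.43% higher and 2.84% lower). Between 1 and 4 of them were above 0 in the 6 scalings, while the share of all genes above 0 ran from 24.4% to 59.2%. Both probe sets of ist-1, a substrate adaptor, were below the medians, and pptr-1, a phosphatase subunit that acts on AKT-1, was above the median in control worms only. The highest were sgk-1, a kinase related to the AKT kinases (502 in a-SWCNT worms and 298 in control worms, 0.75), and the 14-3-3 gene par-5 (0.02, from -0.62 to 0.44 over 3 probe sets). The lowest were the other 14-3-3 gene, ftt-2 (-0.96, from -1.61 to -0.44 over 3 probe sets), and akt-1 (-0.78). daf-16 stood at -0.09, from -0.41 to 0.14 over 3 probe sets. The signs of par-5, pdk-1 and daf-16 changed with the scaling, whereas sgk-1 was above 0 in all 6 scalings. ftt-2 and akt-1 were below 0 in all 6, as were age-1, aap-1, akt-2 and daf-18.

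Insulin-like peptides are made as precursors that proprotein convertases cut and dense-core vesicles release. Of 11 genes of processing and secretion measured on both arrays, 9 were above 0 and 2 below, beside 47.7% of all genes above 0. Their median was 0.15, and 0 were 2-fold different (background 1.43% higher and 2.84% lower). With equal hybridisation controls 3 were above 0 and 8 below, beside 24.4% of all genes above 0. With equal medians or equal 75th percentiles 9 were above 0, and with quantile normalisation or loess centring 8 (all genes 52.8% to 59.2%). The highest were asna-1, an ATPase that promotes insulin secretion (779 in a-SWCNT worms and 538 in control worms, 0.54), and egl-3, a proprotein convertase of neurons (0.53, with 0.59 and 0.47 in its probe sets), both above 0 in all 6 scalings. The lowest were the syntaxin gene unc-64 (205 in a-SWCNT worms and 381 in control worms, -0.89) and the convertase gene bli-4 (-0.15). kpc-1, a convertase of many tissues, is among the 11 genes of the list and was singled out here after its values were seen. It averaged 0.15 over probe sets from -1.13 to 0.67, which shows how far probe sets of a gene can lie apart.

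Because the peptides come from neurons and intestine, markers of both were set beside them. Of 8 neuronal markers 1 was above 0 and 7 below, with a median of -0.16, beside 47.7% of all genes above 0. They were led by egl-3, which is on both lists, then unc-10 at -0.01, and ric-4 (-0.32) and rab-3 (-0.33) were lowest. With equal medians, quantile normalisation or loess centring 3 neuronal markers were above 0 (all genes 52.8% to 54.8%). With equal 75th percentiles 4 were above 0 (all genes 59.2%), and with equal hybridisation controls 1 (24.4%). Of 6 intestinal markers 4 were above 0 and 2 below, with a median of 0.32, and their signals summed to 11118 in a-SWCNT worms and 8998 in control worms. With equal hybridisation controls 3 intestinal markers were above 0 and 3 below, beside 24.4% of all genes above 0. With loess centring 4 were above 0, with equal medians or quantile normalisation 5, and with equal 75th percentiles 6 (all genes 52.8% to 59.2%). The highest were the proton pump gene vha-6 (2500.0 in a-SWCNT worms and 1160 in control worms, 1.11) and the peptide transporter gene pept-1 (0.91), and the lowest were ges-1 (-0.06) and ifb-2 (-0.10), whose signs changed with the scaling. The neuronal markers summed to 3737 in a-SWCNT worms and 3654 in control worms, and to 2626 in a-SWCNT worms and 2904 in control worms without egl-3. Such sums weigh bright probe sets most. Every marker of the neuronal and intestinal lists was measured on both arrays. Of 6 genes listed as markers of the ASI and ASJ neurons, daf-7 (-0.01) and gpa-9 (0.21) were measured, both with signs that changed with the scaling. The control signal of gpa-9, 58.9, was close to that array's median of 58.4. The others, str-3, gpa-4, trx-1 and ssu-1, were below the medians. The part of intestinal or neuronal RNA content in the members' ratios was not tested.

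**Figure D4:**
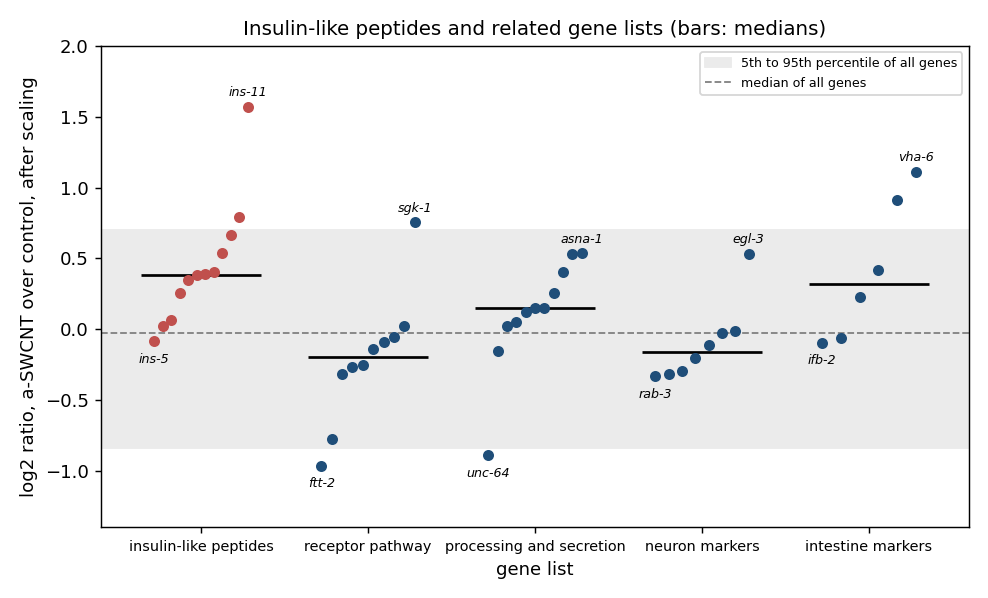
Log2 ratio of a-SWCNT over control for the 12 measured insulin-like peptide genes (red) and the measured genes of the other lists (blue), sorted within each list, with black bars at list medians and the extreme genes named. The grey band spans the 5th to 95th percentile of all genes, -0.84 to 0.70. The medians of the peptides (0.38), of processing and secretion (0.15) and of the intestinal markers (0.32) are above 0. Those of the receptor pathway (-0.20) and of the neuronal markers (-0.16) are below.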

How the data were processed

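Biotin-labelled cRNA from 6 ug of total RNA was hybridised to Affymetrix arrays, per the labels' protocols. The deposited values are linear signal intensities, 1 for each probe set, made with MAS5 per the submitters' processing notes. The version and the scaling target of MAS5 are not given in the sources used here. The 77 control probe sets of the manufacturer were left out of medians and scaling. Gene names came from the platform annotation (20766 probe sets with 1 gene, 887 with several and 895 unlisted worm probe sets, the last not named), and 20701 of the single-gene probe sets matched the WBcel235 reference table by gene identifier. The scaling matched arithmetic means after removal of 2% of values at each end. A signal at or below its array's median was replaced by that median where the other array was above its own, and such a fold is a lower bound; where both were below, no ratio was taken. Probe sets of a gene that were measured on both arrays were averaged as log2 ratios. All measured members were named, and of other lists the 2 highest and 2 lowest genes, daf-2 and daf-16. Outside this rule, some genes were named after their values were seen. These were ist-1, pptr-1, kpc-1, age-1, aap-1, akt-2, daf-18, pdk-1 and the markers of ASI and ASJ neurons without a ratio. Of the names on these lists, rab-27 matched no symbol. Members and lists were chosen with earlier results of these data known. Python 3.11.15, pandas 2.3.3 and statsmodels 0.14.6 (loess span 0.3) were used, and the scaling steps were tested on simulated data. No test was run, as each group had 1 array. No sequences were shown, as none were among the sources used here.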

Additional observations from a re-analysis of the deposited data

How the results depend on the processing

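Alternatives were 6 other scalings, floors at the 25th and 75th percentile of each array, thresholds of 1.5-fold and 3-fold, omission of probe sets with a letter suffix, and the brightest probe set of each gene. As deposited, the members' median log2 ratio was -0.94 (all genes -1.35), with 1 member above 0. Then 0 members were 2-fold higher or more (all genes 0.012%), and 4 of 12 were 2-fold lower or more, beside 78.8% of all genes. In the other scalings the median lay between 0.11 and 0.51 and ins-11 was the 1 member at least 2-fold higher. With the floor at the 25th percentile, 22 member probe sets were above it on the control array and 18 members had a ratio. Of these, 14 were above 0 beside 50.3% of all genes. At least 2-fold higher were 2, ins-11 and ins-21 (1.27), beside 3.01% of all genes. The members gained by this floor, all with control signals below the median, lay on both sides of 0. ins-21, ins-6 (0.69) and a probe set of ins-24 (0.32) were above it. ins-22 (-0.56), daf-28 (-0.03) and ins-23 (-0.02) were below it. The control signal of ins-21, 16.2, was close to the floor of 15.0. At the 75th percentile, 6 member probe sets were above the floor on the a-SWCNT array and 4 on the control array. Then 4 had a ratio, all 4 above 0 beside 53.7% of all genes, and 0 were 2-fold higher (all genes 1.46%). The number higher was 3 at 1.5-fold, 0 at 3-fold, and 0 without letter-suffix probe sets, which leaves out ins-11. The brightest probe set of each gene gave the same counts and median for the members. That outcome was fixed, as ins-24 alone had 2 probe sets and was not among the 12 measured on both arrays. The cause of these moves was not tested, apart from those that follow from fewer probe sets or another threshold. No paired analysis was possible because each group had 1 array. Members close to the floor, such as ins-37 and ins-26, are limited by low signal.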
